A study of Mus musculus with 43 samples.

Results

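The guides described here target the 13 protein-coding genes of the mouse mitochondrial genome, ATP6, ATP8, CYTB, COX1, COX2, COX3, ND1, ND2, ND3, ND4, ND4L, ND5 and ND6, in a CRISPR screen of OT-I:Rosa26-Cas9 CD8+ T cells transferred into Rosa26-Cas9 mice with pancreatic tumours that were given anti-PD-1 or IgG. Both antibody arms are counted below. The guides were chosen by the gene symbol in the deposited table, written in capitals as there, and number 65 sgRNAs, 5 for each gene, of 10640 sgRNAs against 2078 genes and nontargeting sequences. Guides of 2 kinds served for comparison: the 250 nontargeting sgRNAs, and the 305 sgRNAs against 61 nuclear genes of complex I, complex III and ATP synthase. These are 38 genes with symbols starting Nduf, 8 starting Uqcr and 15 starting Atp5, assembly factors left out. Nuclear genes of cytochrome c oxidase, the complex of COX1 to COX3, were counted apart. Against the cells of the day of transfer, limma called none of the 13 mitochondrial genes in the primary tumour, lung, liver, peritoneal metastases or spleen. At an unadjusted p under 0.05 it gave 5 of 130 gene tests, all in the lung, beside 422 of 610 for the 61 nuclear genes. The share of all genes at that unadjusted threshold is not reported here. In the same groups, the 61 nuclear genes were called lower in 297 of 610 gene tests, where 6.16% to 18% of all genes were called lower per group. Nuclear genes of cytochrome c oxidase were called lower in 25 of 180.

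The respiratory chain is built from subunits of both genomes. Complex I, the NADH dehydrogenase, holds the ND proteins among its many nuclear Nduf subunits. Cytochrome b (CYTB) sits in complex III beside the Uqcr proteins, COX1 to COX3 form the catalytic core of cytochrome c oxidase, and ATP6 and ATP8 belong to the proton-conducting part of ATP synthase, whose other subunits are the nuclear Atp5 genes. A cell holds many copies of the mitochondrial genome, and fragments of it have been copied into the nuclear chromosomes over evolution, where they lie as pseudogene sequence.

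The positions of the targets are given here by the RefSeq annotation of GRCm38.p6, since no genome build for this screen was found in the sources used here. The sgRNA sequences themselves were not analysed here, so the sites could be described only by gene. On the circular mitochondrial genome of 16299 bases, ND1 spans MT:2751-3707, ND2 MT:3914-4951, COX1 MT:5328-6872, COX2 MT:7013-7696, ATP8 MT:7766-7969, ATP6 MT:7927-8607, COX3 MT:8607-9390, ND3 MT:9459-9806, ND4L MT:9877-10173, ND4 MT:10167-11544, ND5 MT:11742-13565 and CYTB MT:14145-15288 on the plus strand. ND6, at MT:13552-14070, was the only member on the minus strand. None of these genes has an intron, and neighbouring reading frames overlap. ATP8 and ATP6 share 43 bases, ND5 and ND6 share 14, and ND4L and ND4 share 7. The stretch shared by ATP8 and ATP6 is shown because a guide within it would lie in both genes. It is written along the plus strand of MT:7927-7969, with the start codon of ATP6 in capitals:
ATP8 and ATP6 overlap: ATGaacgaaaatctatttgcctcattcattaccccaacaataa

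The same 43 bases also stood in the nuclear genome, on the minus strand of chromosome 1 at 24614609 to 24614651. They lay within a stretch of 4621 bases (chr1:24611555-24616175) that holds copied sites of COX2, ATP8, ATP6, COX3, ND3 and ND4L and of parts of COX1 and ND4, and carries the annotated pseudogenes Gm10222 and Gm10925. To count such copies, every site of 20 bases followed by NGG, the sequence pattern that Cas9 recognises, was taken on both strands of the 13 genes. Each was looked for in exact form on 21 nuclear chromosomes. Of 1063 such sites, 527 (49.58%) had an exact nuclear copy. The share differed widely between genes. It was 0% in ND1, 14.17% in CYTB, 19.3% in ND6, 21.51% in ND2, 25.75% in ND5, 61.98% in ND4 and 71.14% in COX1. It was 96.55% in ND4L, 98.41% in COX2, 98.51% in COX3 and 100% in ATP8, ATP6 and ND3. The other long stretches were chr2:22587310-22590523, within Myo3a, with 127 sites of ND2, COX1 and COX2, and chr4:80002420-80005074, with 53 sites of ND5, ND6 and CYTB.

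The T cells came from OT-I:Rosa26-Cas9 mice, so each carried a T cell receptor for ovalbumin and expressed Cas9, and they were transduced with the lentiviral library, which marks cells with CD90.1. CD90.1+ cells were injected into Rosa26-Cas9 mice bearing orthotopic tumours of KPC_OVA, a mouse pancreatic cancer line that expresses ovalbumin, and the mice received anti-PD-1 or control IgG from the same day. T0 is the aliquot of cells kept at transfer (3 libraries), and the 14 other groups are CD90.1+ OT-I cells sorted on day 7 from primary tumour, lung, liver, peritoneal metastases, spleen, draining lymph nodes and nondraining lymph nodes under each antibody. Of 43 samples, 41 have values: liver anti-PD-1 has 1 library, liver IgG and peritoneal metastases IgG have 2 each, and the other groups have 3. Every group, T0 included, carries the same library in Cas9-expressing cells. By the methods the lentivirus was added at a high multiplicity of infection, so a cell could carry several sgRNAs and a mitochondrial guide could share its cell with others. The labels number the libraries as biological replicates without naming animals, so that p-values measure the spread between these libraries. Genomic DNA at the sgRNA was sequenced, so no marker gene was measured and the labelled cell type could not be checked. Cutting at the target sites was not measured either, so it is not known whether the mitochondrial genes were altered. The title of peritoneal metastases anti-PD-1 replicate 2 names metastases while its tissue label names spleen, and the title was followed.

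The value per sgRNA and library is a signal: read counts that the authors scaled to the nontargeting sgRNAs and corrected for batch between organs. It is not a whole number, so the read depth behind it is unknown. The summed signal of a library ran from 1788300 to 4228882. Many values after transfer are the sgRNA's lowest within a replicate number and are either 0 or identical in several libraries of that number. These are called shared lowest values here. Changes are on the log2(signal + 1) scale, which understates the change of low values. They were taken after subtracting the library's median over nontargeting sgRNAs, and were averaged over the 5 sgRNAs of a gene for tests of genes. All comparisons with T0 use the same 3 T0 libraries.

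At T0 the mitochondrial guides were present at levels like those of the nontargeting ones. Their median signal was 336, 338 and 212 in the 3 libraries, against 297, 295 and 194 for nontargeting sgRNAs and 282, 296 and 249 for the nuclear Nduf, Uqcr and Atp5 sgRNAs. No mitochondrial sgRNA was at a shared lowest value in any T0 library. The SD over the 65 sgRNAs, on the log2(signal + 1) scale, was 0.66 to 0.75, against 1.08 to 1.11 over the nontargeting sgRNAs. By gene, the geometric mean signal of the 5 sgRNAs was highest for ND6 (560, 484 and 316) and lowest for ATP8 (250, 245 and 137). ATP6 read 322, 361 and 196, and CYTB read 378, 348 and 267. Replicate 3 was the lowest library for each of the 13 genes, and nontargeting sgRNAs were lower there as well.

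In the primary tumour, mitochondrial guides read close to their T0 level relative to nontargeting sgRNAs. Under anti-PD-1, ATP6 read 228, 191 and 202, ATP8 read 200, 194 and 118, and CYTB read 281, 566 and 240. ND6 read 691, 585 and 302, and ND4L, the lowest by change, read 266, 167 and 64.3. The signals of each of these 5 genes overlapped with those at T0. The median change over the 65 sgRNAs was 0.12, against -0.02 over nontargeting sgRNAs, -0.27 over all sgRNAs and -2.86 over the nuclear sgRNAs. By gene, the change ran from -0.50 for ND4L to 0.55 for ND6. ATP6 changed by -0.07 (SE 0.94), ATP8 by 0.09 (SE 1.12) and CYTB by 0.42 (SE 1.26). None of the 13 genes was called by limma with Benjamini-Hochberg adjustment and none had an unadjusted p under 0.05, where 11.9% of all genes were called lower. The lower ends of the 95% intervals of the 13 changes lay between -2.81 and -1.30, and the smallest decrease called among the nuclear genes there was 3.20.

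Under IgG the primary tumour gave the same picture. ATP6 read 186, 214 and 133, ATP8 read 194, 248 and 147, and CYTB read 322, 368 and 300. The median change over the mitochondrial sgRNAs was 0.01, against -0.10 over nontargeting and -2.50 over nuclear sgRNAs. COX2 had the lowest change, -0.84 (SE 0.91), with 180, 109 and 66.6 against 301, 251 and 169 at T0. After centring its 3 libraries lay below every T0 library, as did those of 782 of all 2078 genes and of 3 of the 13 in all. CYTB had the highest, 0.25. limma called 0 of the 13 genes, 0 had an unadjusted p under 0.05, and 11.5% of all genes were called lower.

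Many nuclear partners of these subunits fell in the same libraries. Under anti-PD-1 in the primary tumour, limma called 17 of 38 Nduf, 5 of 8 Uqcr and 5 of 15 Atp5 genes lower, 27 of 61 in all. A change below 0, called or not, was found in 57 of 61. Atp5a1, the alpha subunit of ATP synthase, read 214, 257 and 243 at T0 and 2.54, 2.59 and 2.45 in the tumour, a change of -5.70 (SE 0.93, limma adjusted p = 5.0e-06). Atp5b, its catalytic beta subunit, fell by 5.28 on the log2 scale. In complex I, Ndufa1 read 219, 296 and 235 at T0 and 3.12, 1.18 and 3.97 in the tumour, a change of -5.75 (SE 0.92, limma adjusted p = 3.9e-06). Ndufs1 and Ndufv1, which belong to its electron-transfer core, changed by -4.59 and -4.89. In complex III, Uqcrc1, a core subunit, changed by -4.96, and Uqcrfs1, the Rieske iron-sulphur protein, by -3.54. For each of these named genes the 3 tumour libraries lay below every T0 library, as for 53 of the 61 nuclear genes and 676 of all 2078. Under IgG, 16 Nduf, 4 Uqcr and 5 Atp5 genes were called lower, 25 of 61.

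In the spleen the mitochondrial guides varied more between libraries. ATP6 read 121, 270 and 55 under IgG and 231, 32.7 and 116 under anti-PD-1. ATP8 read 34.1, 208 and 91.1 under IgG and 171, 25.7 and 41.4 under anti-PD-1. CYTB read 430, 372 and 175 under IgG and 464, 128 and 93 under anti-PD-1. In anti-PD-1 replicate 2, 13 of the 65 mitochondrial sgRNAs were at a shared lowest value, beside 18.4% of the nontargeting and 47.5% of the nuclear sgRNAs. The median change over mitochondrial sgRNAs was 0.03 under IgG and 0.01 under anti-PD-1, against -0.16 and -0.22 over nontargeting and -2.81 and -3.11 over nuclear sgRNAs. The medians over the 13 genes were lower, -0.41 and -0.42, with 8 and 10 of 13 genes below 0, and those over all genes were -0.47 and -0.67. By gene the change ran from -1.56 (COX2) to 0.78 (ND5) under IgG and from -1.78 (ND4L) to 0.70 (ND6) under anti-PD-1. limma called 0 of 13 under either antibody, with 0 at an unadjusted p under 0.05, where 12.2% and 12.8% of all genes were called lower. Of the 61 nuclear genes, 32 and 34 were called lower.

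In the peritoneal metastases, ATP6 read 50.6 and 152 under IgG and 364, 61.7 and 249 under anti-PD-1. ATP8 read 75.5 and 147 under IgG and 201, 92.4 and 122 under anti-PD-1. CYTB read 283 and 90.4 under IgG and 236, 667 and 207 under anti-PD-1. The median change over mitochondrial sgRNAs was -0.21 and 0.01, against -0.12 and -0.10 over nontargeting and -2.53 and -3.04 over nuclear sgRNAs. The lowest gene was ATP6 under IgG (-1.26) and ND4 under anti-PD-1 (-0.97), and the highest were ND5 (0.48) and CYTB (0.45). 0 of 13 genes were called by limma in either group, and 0 had an unadjusted p under 0.05, where 11.2% and 13% of all genes were called lower. Of the nuclear genes, 23 and 33 of 61 were called lower.

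In the liver, with 2 libraries under IgG and 1 under anti-PD-1, ATP8 read 28 and 41.1 under IgG and 70.8 under anti-PD-1, all below the T0 signals of 137 to 250. After centring, the IgG libraries lay below every T0 library for ATP8, as for 7 of the 13 genes and 949 of all 2078. ATP6 read 103 and 39.4 under IgG and 181 under anti-PD-1. CYTB read 638 and 156 under IgG and 186 under anti-PD-1, so its IgG libraries lay on either side of T0. The median change over mitochondrial sgRNAs was -0.25 and 0.05, against -0.10 and -0.14 over nontargeting and -2.63 and -2.08 over nuclear sgRNAs. By gene the change ran from -1.62 (ATP8) to 0.88 (CYTB) under IgG and from -1.35 (COX1) to 1.24 (ND4) under anti-PD-1. limma, which lends these groups the spread of the others, called 0 of 13 in both, with 0 at an unadjusted p under 0.05, where 10.8% and 6.16% of all genes were called lower. Of the nuclear genes, 25 were called lower under IgG. In the single library under anti-PD-1, 57 of 61 had a change below 0, with a median over genes of -2.63.

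The lung held the lowest values of mitochondrial guides outside the lymph nodes. Under IgG, ATP8 read 4.72, 10.2 and 122, ATP6 read 75.7, 17.6 and 39.1, COX1 read 25.8, 31.6 and 61 and COX2 read 16.3, 59.1 and 54.4. All 3 libraries of each gene lay below the T0 signals before centring. CYTB, at 563, 345 and 144, and COX3, at 71, 323 and 103, overlapped with T0. After centring, all 3 libraries of ATP6, COX1 and COX2 lay below every T0 library. For ATP8, 2 lay below and 1 above. Every lung IgG library lay below every T0 library for 7 of the 13 genes and for 1134 of all 2078. The changes were -2.61 (SE 1.12) for ATP8, -2.14 for ATP6, -2.02 for COX1, -1.86 for COX2 and 0.64 for CYTB. limma called 0 of the 13, and ATP8, ATP6, COX1 and COX2 had an unadjusted p under 0.05, with an adjusted p of 0.107 for ATP8. Here 18% of all genes were called lower, and the median change was -1.09 over mitochondrial, -0.87 over nontargeting and -1.50 over all sgRNAs. The nuclear sgRNAs had a median of -4.15, and 45 of 61 nuclear genes were called lower.

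Shared lowest values in the lung were about as frequent among mitochondrial as among nontargeting sgRNAs. In IgG replicates 1, 2 and 3, 38.5%, 21.5% and 7.69% of the mitochondrial sgRNAs were there, beside 38.4%, 23.6% and 8.0% of nontargeting and 64.6%, 53.4% and 29.8% of nuclear sgRNAs. Under anti-PD-1, ATP6 read 52.4, 37.4 and 108, ATP8 read 201, 85.3 and 23.1, COX1 read 31.7, 49.2 and 41, and CYTB read 319, 229 and 184. COX1 had the lowest change, -2.09 (SE 0.90, limma adjusted p = 0.123), and ND6 the highest, 0.25. limma called 0 of 13, with COX1 alone at an unadjusted p under 0.05, where 16.6% of all genes were called lower. The median change was -0.23 over mitochondrial, -0.39 over nontargeting and -3.99 over nuclear sgRNAs. Of the nuclear genes, 44 of 61 were called lower, Ndufa1 by 6.78, Uqcrc1 by 6.72 and Atp5a1 by 6.11 on the log2 scale. When the 12 lymph node libraries were left out of the fit, a setting chosen after seeing the data, 8 of the 13 genes in lung IgG and COX1 in lung anti-PD-1 were called lower, while 794 and 567 of all 2078 genes were. With the nontargeting mean in place of the median in that fit, none of these was called, and CYTB in lung IgG was called higher (1.82, limma adjusted p = 0.0396).

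Over the 10 groups outside the lymph nodes, the 130 gene tests of mitochondrial genes gave 0 calls by limma. An unadjusted p under 0.05 was found in 5 of them, all in the lung, a threshold at which the share of all genes is not reported here. The 610 tests of the nuclear genes gave 297 decreases (186 of 380 for Nduf, 46 of 80 for Uqcr and 65 of 150 for Atp5) and no increase. Group medians over sgRNAs ran from -1.09 to 0.12 for the mitochondrial guides and from -0.87 to -0.02 for nontargeting guides. For the nuclear Nduf, Uqcr and Atp5 guides they ran from -4.15 to -2.08. The first 2 ranges overlapped and the third lay apart. Not all nuclear partners lay apart: for nuclear cytochrome c oxidase guides the medians ran from -2.06 to -0.56, overlapping with the mitochondrial range. Under other choices of centring, filter and libraries, between 0 and 11 of the 130 mitochondrial tests passed. Decreases of nuclear genes numbered 331 to 484 of 610 under the settings other than single libraries left out, except that with the lowest 10% of sgRNAs left out they numbered 35 of 560.

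Single sgRNAs gave the same ordering. A mitochondrial sgRNA was counted as low when its change lay under the range holding the central 95% of nontargeting sgRNAs in that group. In the primary tumour 2 of 65 were low under IgG and 1 under anti-PD-1, against 197 and 200 of 305 nuclear sgRNAs, where 16.5% and 16.8% of all sgRNAs were. In the lung 4 and 2 were low, against 89 and 128 nuclear sgRNAs, where 9.16% and 13% of all were. In the liver 5 and 0 were low, against 128 and 79, where 12.2% and 8.28% of all were. In the peritoneal metastases 1 and 0 were low, against 142 and 155, where 13.6% and 14% of all were. In the spleen 1 and 4 were low, against 141 and 144, where 12.9% and 13.2% of all were.

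In the limma test of single sgRNAs, 4 of 650 tests outside the lymph nodes called a mitochondrial sgRNA lower, 8 of 2500 called a nontargeting one lower and 423 of 3050 a nuclear one. The 4 were all in the lung. Under IgG they were s_02243 against COX1 (-5.61), s_02281 against ND4L (-6.64) and s_02286 against ND5 (-6.45), where 8.64% of all sgRNAs and 5 of the 250 nontargeting ones were called lower. Under anti-PD-1 it was s_02281 again (-5.01, limma adjusted p = 0.0405), where 8.42% of all sgRNAs and 3 nontargeting ones were. No mitochondrial sgRNA was called in the primary tumour (3.8% of all sgRNAs lower under IgG and 4.33% under anti-PD-1), liver (3.73% and 0.592%), peritoneal metastases (4.24% and 5.25%) or spleen (4.53% and 4.66%). At an unadjusted p under 0.05, limma gave 3 of the 65 mitochondrial sgRNAs in liver IgG, beside 4 of the 250 nontargeting ones. It gave 2 in spleen anti-PD-1, beside 1 nontargeting one, and 0 mitochondrial ones in the other 6 of these groups. The share of all sgRNAs at that threshold is not reported here.

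The ND4L sgRNA s_02281 stood lowest of the 65, with a mean change of -2.94 over the 10 groups and values below 0 in each. It read 232, 313 and 192 at T0, 43.1, 15.1 and 28.6 in primary tumour IgG and 65.1, 46.7 and 40.5 in primary tumour anti-PD-1. Under IgG in the lung it read 0.739, 0.541 and 0.114. Its tumour and lung IgG libraries all lay under T0, whereas in spleen IgG it read 164, 59.3 and 445, on both sides of T0. The next lowest was s_02237 against ATP8 (mean change -2.28, below 0 in 10 of 10 groups), which read 143, 177 and 80.3 at T0 and 81.7, 96.3 and 82.2 in primary tumour anti-PD-1, overlapping with T0. Highest was s_02261 against ND1, with a mean change of 0.95. It read 635, 791 and 557 at T0 and 1837, 1197 and 1440 in primary tumour anti-PD-1, above every T0 library, but 89.5, 818 and 329 in lung IgG. These sgRNAs were picked by their values and are given as a description. No sgRNA of CYTB was among the 5 lowest, and s_02258 of CYTB was among the 4 highest, with a mean change of 0.68.

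The 13 genes can be ordered by how often they lay below T0. The median change over all genes was itself below 0 in each of the 10 groups outside the lymph nodes, from -1.42 to -0.20. A change below 0 was therefore common over all genes, and the counts that follow are not read as a loss of these guides. COX1 and ND4L had a change below 0 in 10 of 10 groups outside the lymph nodes, ATP6 and COX3 in 9, COX2, ATP8 and ND4 in 8, ND2 in 6, ND5 in 5 and ND3 in 4. ND1, ND6 and CYTB were below 0 in 2 groups each. These counts rest on the centring: with the nontargeting mean, ND4L was below 0 in 9 groups, COX1 in 8, ATP6, ATP8 and COX3 in 7, COX2 and ND4 in 6 and ND2 in 2, and 22 of the 83 changes below 0 turned above it. The median of a gene's 10 changes was -0.90 for ATP6, -0.75 for COX2, -0.68 for COX1 and -0.66 for ATP8, and it was 0.16 for ND1, 0.31 for CYTB and 0.33 for ND6. No standard error was computed for these medians or counts. Neighbours in the order of medians differed by less than the standard error of a gene's change in a single group of 3 libraries. That error was 0.90 to 1.26 in the fit that includes the lymph nodes.

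The order of the genes was set beside the share of their Cas9 sites with an exact nuclear copy. This comparison was made after the values were seen and has no test, and it describes the genes rather than the guides used. COX2, ATP8, ATP6, COX3, ND3 and ND4L have a copy for at least 90% of sites, and ND1, ND2, ND5, ND6 and CYTB for at most 30%, with COX1 and ND4 between. The difference between the 2 sets within a library does not depend on the centring. On the log2(signal + 1) scale, the 6 genes with many copies lay below the 5 with few by 0.53, 0.36 and 0.43 already at T0, so the sets started apart. After transfer the difference was below that of every T0 library in 22 of 26 libraries outside the lymph nodes. It was -0.80, -0.92 and -0.91 in primary tumour IgG and -0.91, -1.02 and -0.70 in primary tumour anti-PD-1. In the lung it was -0.70, -2.0 and -0.66 under IgG and -1.06, -1.28 and -1.20 under anti-PD-1, in liver IgG -1.70 and -1.21, and in spleen IgG -1.69, -1.59 and -1.04. The exceptions were liver anti-PD-1 (-0.48) and replicate 3 of peritoneal metastases IgG (-0.47), peritoneal metastases anti-PD-1 (-0.41) and spleen anti-PD-1 (-0.32), which lay within the T0 range or above it. With log2(signal + 10), chosen after seeing the data, 22 of 26 libraries again lay below every T0 library. In the lymph nodes the difference was 0.35 in draining lymph nodes anti-PD-1 replicate 2 and 1.38 in nondraining lymph nodes anti-PD-1 replicate 2, above T0, and between -2.61 and -0.41 in the other libraries.

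As medians over genes, the change of the 6 genes with many copies was lower than that of the 5 with few in 10 of 10 groups outside the lymph nodes. The medians were -0.11 and 0.22 in primary tumour anti-PD-1, -1.04 and 0.10 in lung anti-PD-1, -0.76 and 0.12 in liver IgG and -0.74 and 0.31 in spleen IgG. Across the 13 genes, Pearson's r between the share of copied sites and the change ran from -0.73 to -0.07 over these groups, and it was 0.14 in nondraining lymph nodes anti-PD-1. The points are 13 genes of 5 sgRNAs in the same libraries, and the 10 groups share T0. The genes with many copies also lie side by side on the mitochondrial genome and as a set lay lower at T0. Copies, position and starting level therefore cannot be told apart. ND3, with a copy for every site, went against the order, with a change below 0 in only 4 groups. In primary tumour anti-PD-1 the changes of the genes with many copies ran from -0.50 to 0.09, beside a median of -2.91 over the 61 nuclear genes. In lung IgG they ran from -2.61 to -0.26, beside a median of -3.93.

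Of the other lists of mitochondrial function, complex II, whose 4 subunits are all nuclear, had 33 of 40 gene tests called lower outside the lymph nodes. Sdha, its flavoprotein subunit, was called in 10 of 10 groups, with changes of -6.92 to -4.01. Of 18 nuclear genes of cytochrome c oxidase, the complex whose core is COX1, COX2 and COX3, 25 of 180 tests were called lower, with Cox7b in 10 groups, Cox6c in 7 and Cox5a in 5. The 6 genes of the list on maintenance and expression of mitochondrial DNA gave 20 calls in 60 tests, all from Ears2 (-6.19 to -5.12) and Mars2 (-6.24 to -4.30), each in 10 of 10 groups. Both encode aminoacyl-tRNA synthetases that work in the mitochondrion on transcripts of the mitochondrial genome. The other four were never called: Mtfmt, the methionyl-tRNA formyltransferase, Rrm2b, a ribonucleotide reductase subunit, and the deoxynucleoside kinases Dguok and Tk2. These calls can be read against the shares of all genes called lower, 6.16% to 18%, given above for each group.

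In the lymph nodes the scale behaved differently, and the direction there rests on it. Signals of mitochondrial guides were far below those of T0 in most libraries. In draining lymph nodes IgG, ATP6 read 6.08, 0.9 and 12, ATP8 read 1.11, 6.54 and 0.714, and CYTB read 322, 389 and 12.7. In draining lymph nodes anti-PD-1, ATP6 read 32.2, 28.7 and 38.5, ATP8 read 7.55, 5.25 and 29.3, and CYTB read 1.76, 5.92 and 327. ND1, highest there, read 42.4, 20.9 and 782. The nontargeting median in these libraries was itself at or near the shared lowest value, between 0.01 and 1.39, with 49.6% to 79.6% of nontargeting and 33.8% to 76.9% of mitochondrial sgRNAs at a shared lowest value. Draining lymph nodes anti-PD-1 replicate 3 stood apart, with a median of 268 for mitochondrial and 0.391 for nontargeting sgRNAs.

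Subtracting that median made most genes appear higher than at T0: the median change over all genes was 2.08 in draining lymph nodes IgG, 1.95 in draining lymph nodes anti-PD-1, 1.37 in nondraining lymph nodes IgG and 1.49 in nondraining lymph nodes anti-PD-1. Of the 13 mitochondrial genes, limma called 6 higher in draining lymph nodes IgG, where 35% of all genes were. It called 8 in draining lymph nodes anti-PD-1, where 28.2% of all were, 2 in nondraining lymph nodes IgG (6.74% of all) and 2 in nondraining lymph nodes anti-PD-1 (8.95% of all). The largest of these were CYTB in draining lymph nodes IgG (5.86, SE 1.26, limma adjusted p = 0.00147) and ND1 in draining lymph nodes anti-PD-1 (5.28, SE 0.95, limma adjusted p = 0.000213). On the values as deposited all 18 had the opposite sign, between -4.71 and -1.45, and with the nontargeting mean for centring 2 of the 18 were called, so no direction is read from them. Of single sgRNAs, 4 mitochondrial and 14 nontargeting ones were called higher in draining lymph nodes IgG (4.54% of all sgRNAs), 4 and 12 in draining lymph nodes anti-PD-1 (3.46%), 2 and 3 in nondraining lymph nodes IgG (1.31%) and 0 and 3 in nondraining lymph nodes anti-PD-1 (1.03%). At an unadjusted p under 0.05, limma gave 11 of the 65 mitochondrial sgRNAs in the last of these groups, beside 31 of the 250 nontargeting ones. The share of all sgRNAs at that threshold is not reported here.

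The comparison of anti-PD-1 with IgG asks whether the antibody altered the representation of these guides within an organ. limma called 0 of the 13 genes in the primary tumour, lung, liver, peritoneal metastases and spleen, with 0 at an unadjusted p under 0.05, and 0% of all genes were called in each of these 5 organs. In the primary tumour the differences ran from -0.22 (ND3) to 0.74 (COX2), and in the lung from -1.33 (COX3) to 1.77 (ND4). In the spleen they ran from -1.64 (ND5) to 1.56 (COX2), in the liver from -0.56 (CYTB) to 1.89 (ND4) and in the peritoneal metastases from -0.61 (ND5) to 1.07 (ATP6). In the draining lymph nodes 0 of 13 were called, where 0.77% of all genes were, and in the nondraining lymph nodes 0, where 0.289% were. At an unadjusted p under 0.05, limma gave 6 and 5 of the 13 there. The share of all genes at that threshold is not reported here, so these 2 counts cannot be weighed. As a mean over the 7 organs, 0 of 13 were called, where 0.0962% of all genes were. ATP6 (1.27, SE 0.39, limma adjusted p = 0.408) and COX2 (0.86, SE 0.38, limma adjusted p = 0.614) had an unadjusted p under 0.05 there, both higher under anti-PD-1. That mean includes both lymph nodes, where many values were shared lowest values, so no direction is read from it. For this mean too, the share of all genes at that threshold is not reported here.

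Between the 7 organs, the moderated F-test called 13 of 13 mitochondrial genes, where 98.4% of all genes were called. F ran from 2.51 for ND6 (limma adjusted p = 0.0336) to 11.4 for ATP6 (limma adjusted p = 2.2e-07). With the lymph nodes and T0 left out of the fit 0 of the 13 were called, and with the nontargeting mean for centring 1 was.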

How the data were processed

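The authors counted reads with the count module of MAGeCK-VISPR, scaled the table by its nontargeting sgRNAs and used ComBat against batch effects of organ. They deposited the resulting signal per sgRNA for 41 libraries, 2 samples having been excluded by them after quality control. Because the signal is not a whole number, no count test was run and no counting interval is given.

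From the signal, log2(value + 1) minus the library's nontargeting median was fitted with limma 3.58.1 in R 4.3.3, with 1 mean per group, for 2078 genes (mean of their sgRNAs) and for 10640 sgRNAs. Prior degrees of freedom were 26.2 and 10.5. Features were called at 0.05 or less after Benjamini-Hochberg adjustment over all of them. Summaries used Python 3.11.15, pandas 2.3.3 and numpy 2.4.6. The fit was tested on simulated data. The members and lists were chosen with earlier results of these data known. The genes named are the 13 members, a fixed set of nuclear subunits (some not reported here), and the Nduf, Uqcr and Atp5 gene with the largest decrease in primary tumour and lung anti-PD-1; single Cox, Sdh and mitochondrial expression genes were named after their values were seen. Alternatives were log2(value + 10), the nontargeting mean, the values as deposited, the lowest 10% of sgRNAs left out, only the groups compared in the fit, the replicate number as a blocking factor, and each library left out in turn; leaving out the lymph nodes was added after seeing the data. Sites were sought in GRCm38.p6 (RefSeq).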

Additional observations from a re-analysis of the deposited data

Results flagged for a closer look

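The mitochondrial genes were flagged for a difference between groups: the moderated F-test over the 7 organs called 13 of 13. The same test called 98.4% of all genes, and 0 of the 13 once the lymph nodes and T0 were left out of the fit.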

How the results depend on the processing

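Over all groups, limma called mitochondrial genes in 18 of the tests against T0, all in the lymph nodes. The count was 2 with the nontargeting mean for centring and 60 on the values as deposited, and from 5 to 22 when a library was left out (7 without T0 replicate 1, 5 without T0 replicate 2 and 7 without T0 replicate 3). Outside the lymph nodes the count of 0 became 9 on the values as deposited, 11 with only the groups compared in the fit (3 of them, COX1 lower and ND3 and ND4 higher, in liver anti-PD-1, whose single library leaves the spread to T0), 9 without the lymph node libraries and 1 without them and with the nontargeting mean; it was 0 to 2 when a library was left out, the 2 being ATP8 and COX1 in lung IgG without lung IgG replicate 3. The cause was not tested. With only the groups compared, the calls outside liver anti-PD-1 were all decreases. COX2 was called in primary tumour IgG (-0.84), peritoneal metastases IgG (-0.88) and spleen IgG (-1.56). ATP8 and COX1 were called in liver IgG, ATP6 and ND4 in lung IgG, and COX1 in lung anti-PD-1. The share of all genes called under that setting is not reported here. Mitochondrial sgRNAs were called 14 times, and 2, 168 and 47 times with the nontargeting mean, the values as deposited and only the groups compared (6 to 22 with a library left out: 6, 7 and 6 without T0 replicates 1, 2 and 3, and 22 without replicate 1 of draining or nondraining lymph nodes anti-PD-1 or lung IgG replicate 3). Nontargeting sgRNAs were called 40 times, and 3, 667 and 178 times under the same 3 settings and 18 times without the lowest 10% of sgRNAs (17 to 75 with a library left out). Nuclear Nduf, Uqcr and Atp5 genes were called 304 times, and 667 on the values as deposited, 487 with only the groups compared and 46 without the lowest 10% of sgRNAs, a filter that removes their low values (236 to 349 with a library left out). Genes called between organs went from 13 to 1 with the nontargeting mean and 0 with only the groups compared (12 to 13 with a library left out). The comparison of anti-PD-1 with IgG called 0 under every alternative. The median change of mitochondrial sgRNAs outside the lymph nodes, -0.33, was 0.081 with the nontargeting mean, with or without the lymph nodes, and -0.92 on the values as deposited (-0.38 to -0.27 with a library left out).

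The replicate numbers were not taken as pairing: deviations correlated over 0.1 in 39 of 248 library pairs with the same number (median -0.05) and in 40 of 494 with different numbers (median 0.02), although the shared lowest values follow the number. With the replicate block, 18 mitochondrial genes were called against T0, 15 mitochondrial and 40 nontargeting sgRNAs, and 351 nuclear genes.

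Direction turned on the values as deposited for all 18 calls in the lymph nodes. In draining lymph nodes IgG the values were -3.97 (COX2), -1.45 (CYTB), -4.14 (ND1), -4.71 (ND3), -4.30 (ND5) and -4.44 (ND6). In draining lymph nodes anti-PD-1 they were -3.07 (ATP6), -4.12 (ATP8), -4.27 (COX1), -1.91 (ND1), -3.93 (ND2), -4.64 (ND3), -3.37 (ND4L) and -4.33 (ND5). In the nondraining lymph nodes they were -3.65 (ND2) and -3.76 (ND4L) under IgG and -4.50 (ATP6) and -4.35 (COX2) under anti-PD-1. In the other organs, where no change was called, 40 of 47 changes above 0 turned on the values as deposited, and 22 of 83 below 0 with the nontargeting mean. Of the highest changes of their groups, CYTB was -0.055 in liver IgG, -0.11 in lung IgG and -0.035 in peritoneal metastases anti-PD-1, and ND6 was -0.31 in lung anti-PD-1 on the values as deposited. With a library left out, CYTB ran from -0.24 (without replicate 2) to 1.996 in liver IgG and from -0.19 (without replicate 2) to 0.92 in peritoneal metastases anti-PD-1. Without its only library, liver anti-PD-1 has no value.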
